A study of Mus musculus with 18 samples.

Results

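The genes described are the D-type cyclins, their kinases CDK4 and CDK6, the inhibitors of these kinases and the retinoblastoma protein, in naive CD4+ T cells of mice with altered LAT. The members were every array probe whose RefSeq accession maps to Ccnd1, Ccnd2, Ccnd3, Cdk4, Cdk6, Cdkn1a, Cdkn1b, Cdkn2c, Cdkn2d or Rb1. This gave 14 of the 41174 probes of the array and covered 9 of the 10 genes. No probe matched Ccnd1 by accession, so Ccnd1 was not analysed here. Ccnd2 had 3 probes, Cdk6, Cdkn1b and Rb1 had 2 each, and the other genes had 1.

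Gene expression was measured on single-colour Agilent mouse arrays in CD44low CD4+ T cells sorted from spleen, with 1 mouse per array. The study asked how tonic signals, which a resting T cell receives without foreign antigen, affect gene expression. All 18 mice were of the C57BL/6 strain background and all received tamoxifen, for 4 weeks or for 1 week, with 3 mice in each of the 6 groups. LAT sits in the membrane and couples the T cell receptor to phospholipase C-gamma 1 and to the Ras pathway. LAT KO mice carried LAT f/-, that is 1 floxed beside 1 null copy of the gene, and an estrogen receptor Cre (ERCre+), so that tamoxifen removed the remaining copy. Y136F mice were ERCre+ LAT f/m, in which the allele left after tamoxifen lacks the tyrosine that binds phospholipase C-gamma 1. WT mice were ERCre- LAT f/- by their sample titles and Cre-positive by the series text. Under the titles, Cre and LAT loss cannot be told apart in LAT KO against WT. Nor can Cre and the Y136F allele be told apart in Y136F against WT. The promoter that drives the Cre is not given in the sources used here. All Y136F mice were female by label, and all LAT KO and WT mice of 4 weeks were male by label. At 1 week the LAT KO and WT groups each held 2 female mice and 1 male mouse by label.

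A naive T cell rests outside the cell cycle, and a T cell receptor signal together with a second signal takes it through G1. D-type cyclins bind CDK4 or CDK6, and the active pair phosphorylates the retinoblastoma protein, which then frees E2F factors to switch on genes for DNA replication. INK4 inhibitors (Cdkn2c, Cdkn2d) bind CDK4 and CDK6 alone, whereas CIP/KIP inhibitors (Cdkn1a, Cdkn1b) bind cyclin-CDK pairs. In resting lymphocytes p27, the product of Cdkn1b, is known as a brake on entry into the cycle.

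Signal is given as log2 of the background-corrected intensity minus the 75th percentile of the array, so 0 is the 75th percentile. Levels of different probes are not set against each other. All 14 probes were well above background on all 18 arrays and none was saturated. The 75th percentile lay between 1124 and 1896 intensity units, and 84.2% to 97.9% of the spots of an array were well above background. Defining CD4 T cell markers were present: the mean log2 signal of 7 of them (Cd3d, Cd3e, Cd3g, Cd4, Cd5, Cd28 and Trat1) lay between 2.83 and 3.52 on every array. Lat averaged 2.71 ± 0.42 in LAT KO, 4.07 ± 0.31 in Y136F and 3.59 ± 0.28 in WT cells at 4 weeks (SD, n = 3 each). At 1 week Lat averaged 2.75 ± 0.44 in LAT KO, 4.25 ± 0.08 in Y136F and 3.20 ± 0.39 in WT cells (SD, n = 3 each). These averages of Lat include outlier spots, which the fitted differences below leave out, so averages and differences need not match. The difference of Lat between LAT KO and WT was not called at either time by limma (adjusted p = 0.203 at 4 weeks and 1 at 1 week). Lat was called lower in LAT KO than in Y136F cells at 4 weeks, by -1.37 ± 0.23 (limma adjusted p = 0.00241), and the 1-week difference of -1.72 ± 0.26 was not called (limma adjusted p = 0.0945). Whether the Lat probe lies within the floxed stretch is not given in the sources used here, so it is a weak check of the labels. Sex-linked genes went against the sex label on 2 arrays, in opposite directions. LAT KO replicate 2 of 4 weeks, male by label, had a mean log2 signal of Y-linked genes of -7.82 and Xist at 0.21. LAT KO replicate 1 of 1 week, female by label, had -0.35 and -9.3. An exchange of the 2 arrays between the times would match both labels, and whether it happened was not tested. All values of LAT KO mice are given by label. Without both arrays, no count of called members given below changed.

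The 6 groups differed mainly in 2 genes, Cdk6 and Cdkn1a, and both were high in Y136F cells at 4 weeks. The group means of the Cdk6 probes spanned 1.51 and 1.40 on the log2 scale, and those of Cdkn1a spanned 1.36. The other 11 probes spanned 0.12 (an Rb1 probe) to 0.54 (Cdkn2c). In the order of the 6 means, Y136F cells at 4 weeks stood first for both Cdk6 probes and for Cdkn1a. Their 3 mice did not overlap with those of the next group for these 3 probes, with gaps of 1.08, 0.99 and 0.84 between the means. Every other pair of neighbouring groups overlapped for these 3 probes. The plot of the 14 probes by mouse shows these values.

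**Figure D1:**
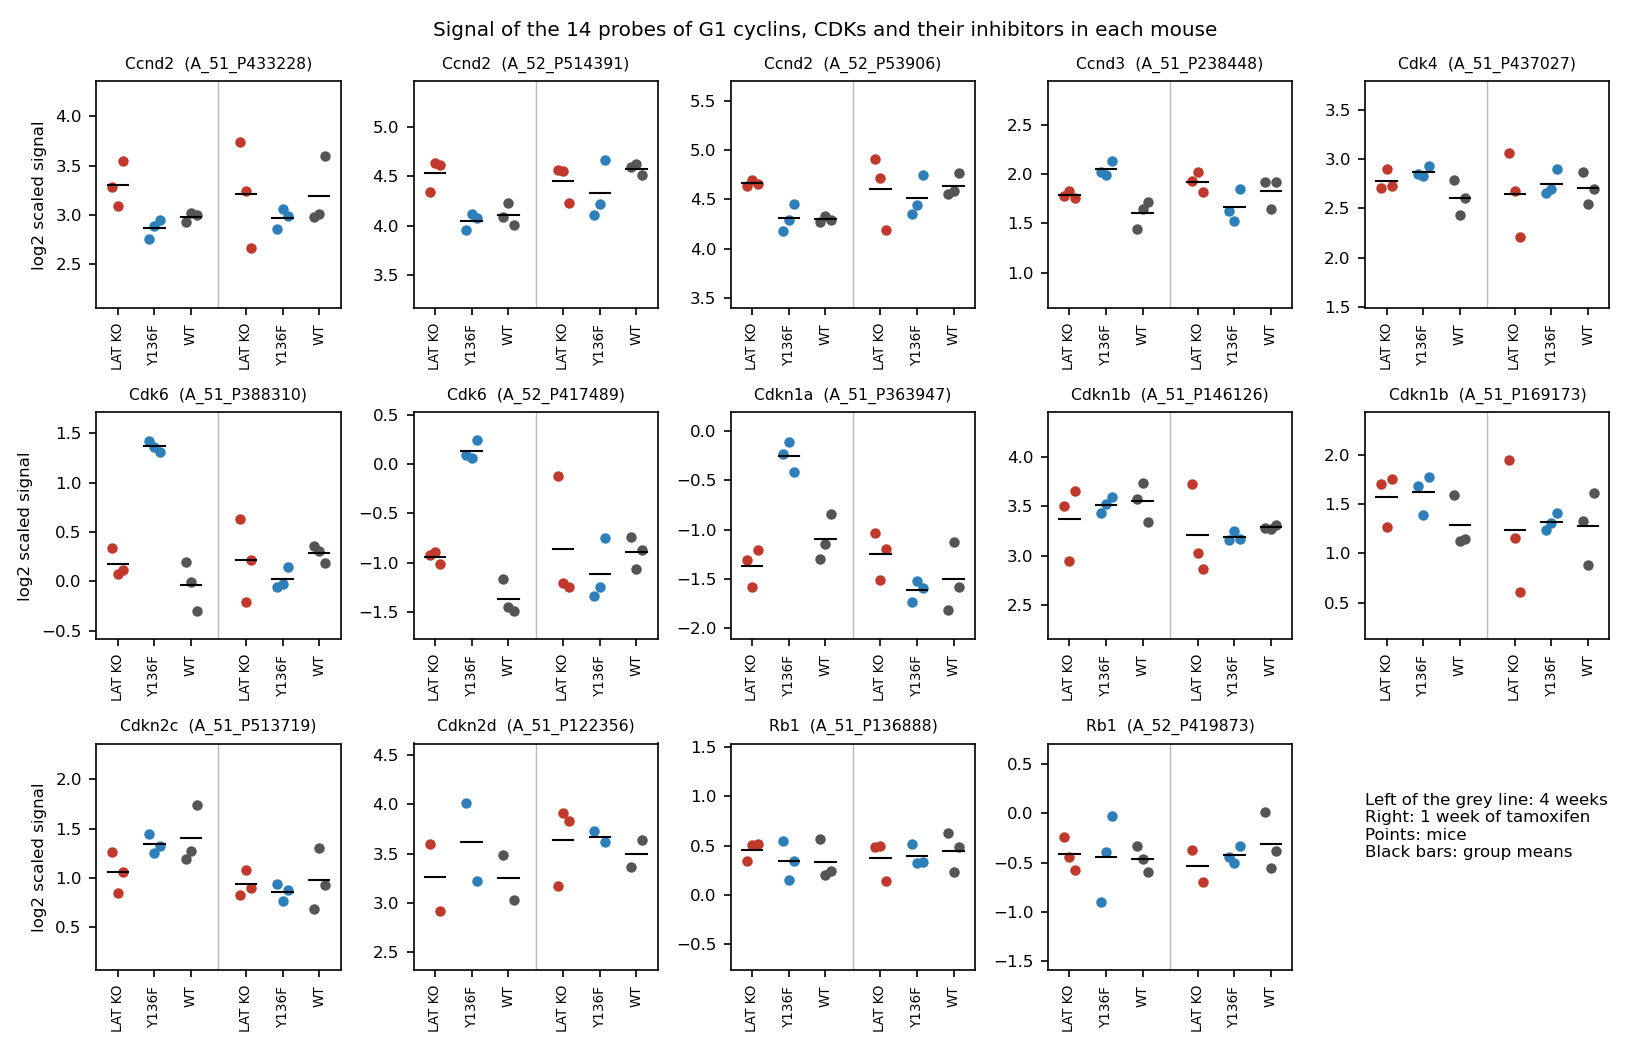
Each panel plots the log2 scaled signal of 1 probe (vertical axis, the same span in each panel) in each mouse of the LAT KO, Y136F and WT groups, at 4 weeks left of the grey line and at 1 week right of it, with the group mean as a black bar. The 3 Y136F mice at 4 weeks sit apart from all other groups for both Cdk6 probes and for Cdkn1a, and the groups overlap widely for Rb1 and Cdkn1b.

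The promoters of the 2 genes that changed are shown because their sequences can be read beside the levels. They are the 250 bases before each RefSeq gene start (build GRCm38.p6, plus strand, written from the far end to the start). RefSeq entries matched 10 promoters of 7 of the member genes. Cdk6 has 1 entry, at chr5:3343643-3343892. Cdkn1a has 2 entries, at chr17:29090729-29090978 and at chr17:29093519-29093768. Capitals mark TATAAA in Cdk6, an element of 20 bases with the known form of a p53 response element in the first Cdkn1a promoter, and the GC box GGGCGG in the second.
Cdk6: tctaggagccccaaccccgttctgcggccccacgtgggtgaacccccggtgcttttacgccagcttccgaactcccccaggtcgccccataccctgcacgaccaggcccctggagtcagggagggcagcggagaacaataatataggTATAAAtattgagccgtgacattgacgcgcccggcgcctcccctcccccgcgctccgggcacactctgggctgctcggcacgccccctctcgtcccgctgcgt
Cdkn1a upstream start: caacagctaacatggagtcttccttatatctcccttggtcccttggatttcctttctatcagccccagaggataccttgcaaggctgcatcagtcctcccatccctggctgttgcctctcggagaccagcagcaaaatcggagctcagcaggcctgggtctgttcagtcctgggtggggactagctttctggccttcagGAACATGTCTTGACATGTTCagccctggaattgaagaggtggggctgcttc
Cdkn1a downstream start: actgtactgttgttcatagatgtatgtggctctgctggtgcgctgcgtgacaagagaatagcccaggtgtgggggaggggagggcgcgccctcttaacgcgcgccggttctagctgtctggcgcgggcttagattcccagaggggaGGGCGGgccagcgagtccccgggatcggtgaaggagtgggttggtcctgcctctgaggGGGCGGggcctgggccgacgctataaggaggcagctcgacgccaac
TATAAA begins 103 bases before the Cdk6 start, and 12.4% of the 32851 promoters of this length hold TATAAA on either strand. The p53 element begins 51 bases before the upstream Cdkn1a start. It was searched with at most 1 mismatch and was found in 25 of the 32851 promoters (0.08%). On either strand, GC boxes begin 104 and 46 bases before the downstream Cdkn1a start, and 32.7% of all promoters hold one. None of the 10 member promoters holds the E2F letters TTTCCCGC, TTTCGCGC, TTTGCCGC or TTTGGCGC on either strand, which 1.9% of all promoters hold. These matches describe letters and are not evidence of binding.

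Of the kinases, 1 changed. Cdk6, which with a D-type cyclin phosphorylates the retinoblastoma protein and is the partner prominent in lymphocytes, was higher in Y136F than in WT cells after 4 weeks, on both of its probes. On probe A_51_P388310, Cdk6 had log2 signals of 1.42, 1.36 and 1.31 in Y136F mice, against 0.19, 0.00 and -0.30 in WT mice. LAT KO mice of 4 weeks had 0.33, 0.07 and 0.12 on this Cdk6 probe. The 3 Y136F mice lay close together, and the LAT KO and WT mice overlapped. On probe A_52_P417489, Cdk6 had 0.09, 0.06 and 0.24 in Y136F mice, against -1.17, -1.46 and -1.50 in WT mice. LAT KO mice of 4 weeks had -0.93, -0.89 and -1.02 on the second Cdk6 probe. Here too every Y136F mouse was above every other mouse of 4 weeks, and the LAT KO mice lay above the WT mice without overlap.

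At 1 week Cdk6 showed no such separation. On probe A_51_P388310 the Cdk6 signals were 0.63, -0.21 and 0.22 in LAT KO, -0.06, -0.03 and 0.15 in Y136F, and 0.35, 0.31 and 0.19 in WT mice. All 3 Y136F mice were below all 3 WT mice at 1 week, and the LAT KO mice spread across both groups. On probe A_52_P417489 they were -0.13, -1.21 and -1.25 in LAT KO, -1.34, -1.25 and -0.75 in Y136F, and -0.74, -1.07 and -0.88 in WT mice. LAT KO replicate 1 of 1 week was the highest mouse of 1 week on both Cdk6 probes, and it is 1 of the 2 arrays that went against their sex label. Its mean log2 signal over 6 activated or memory T cell markers was 2.50, against 1.40 and 1.15 in the other LAT KO mice of 1 week. Its mean over 7 B cell markers was -0.18, against -1.48 and -1.24. The part of these markers in its Cdk6 level was not tested.

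The difference of Cdk6 between Y136F and WT cells at 4 weeks was 1.40 ± 0.18 on probe A_51_P388310 (log2, SE), which is 2.65-fold (limma adjusted p = 0.000217). On probe A_52_P417489 it was 1.51 ± 0.24, or 2.84-fold (limma adjusted p = 0.00124). With Cdkn1a, 3 of the 14 probes were called higher and 0 lower in this comparison, while 2.58% of all tested probes were called higher and 0.933% lower. Called means an adjusted p under 0.05 in a limma fit over all 18 arrays, adjusted by Benjamini-Hochberg over every tested probe. In such bulk samples, more cells with a transcript and more transcript per cell cannot be told apart. Each Y136F array of 4 weeks shared a slide with a WT array of 4 weeks, and within these slides the differences of Cdk6 were 1.23, 1.37 and 1.61 on the first probe and 1.26, 1.52 and 1.73 on the second. With sex by label as a term in the model the first probe stayed past the threshold (1.33 ± 0.26, limma adjusted p = 0.0424) and the second did not (1.23 ± 0.34, limma adjusted p = 0.166). By label only the LAT KO and WT groups of 1 week held both sexes, so this term rests on those mice. LAT KO replicate 1 of 1 week, among them, went against its label, and sex by expression was not fitted. Against the Y136F mice of 1 week, all female like those of 4 weeks, Cdk6 in Y136F cells at 4 weeks was higher by 1.35 ± 0.18 and 1.24 ± 0.24 (limma adjusted p = 0.000184 and 0.00304). The slides of these groups differed in part, so time and slide are partly mixed in this comparison.

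The difference between Y136F and WT cells was itself larger at 4 weeks than at 1 week for Cdk6. The 4-week difference exceeded the 1-week difference by 1.67 ± 0.25 and 1.72 ± 0.33 on the 2 probes (limma adjusted p = 0.00454 and 0.0223). These were the only 2 of the 14 probes called in that test, in which 0.602% of all probes were called, 0.464% higher and 0.138% lower. The call of the second probe was lost on leaving out any 1 of 7 arrays: Y136F replicate 1 or 3 of 4 weeks, Y136F replicate 1 or 2 of 1 week, WT replicate 2 or 3 of 4 weeks, or WT replicate 3 of 1 week. The difference was then between 1.61 and 1.74 (limma adjusted p between 0.0513 and 0.0843). LAT KO cells did not share the high level: Cdk6 at 4 weeks was lower in LAT KO than in Y136F cells by 2.29-fold (log2 difference -1.19 ± 0.18, limma adjusted p = 0.000659) and 2.11-fold (-1.08 ± 0.24, limma adjusted p = 0.0128). Of the 14 probes, 3 were called lower and 0 higher in that comparison, against 2.39% and 1.15% of all probes. Both Cdk6 differences missed the threshold with sex by label as a term (limma adjusted p = 0.0628 and 0.284), and the second also without LAT KO replicate 2, LAT KO replicate 3 or Y136F replicate 3 of 4 weeks (limma adjusted p = 0.0514, 0.0517 and 0.0559). Both comparisons at 4 weeks use the same Y136F arrays.

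Cdk4, the second kinase that works with D-type cyclins, was called in no comparison. At 4 weeks Cdk4 had log2 signals of 2.71, 2.89 and 2.73 in LAT KO, 2.85, 2.83 and 2.93 in Y136F, and 2.78, 2.43 and 2.61 in WT mice. The Y136F mice lay just above the WT mice with no overlap, and the LAT KO mice overlapped both. The difference between Y136F and WT was 0.26 ± 0.17 (95% interval -0.10 to 0.62, limma adjusted p = 0.452). At 1 week Cdk4 ranged from 2.21 to 3.06 in LAT KO, from 2.66 to 2.90 in Y136F and from 2.54 to 2.87 in WT mice, with all 3 groups overlapping.

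**Figure D2:**
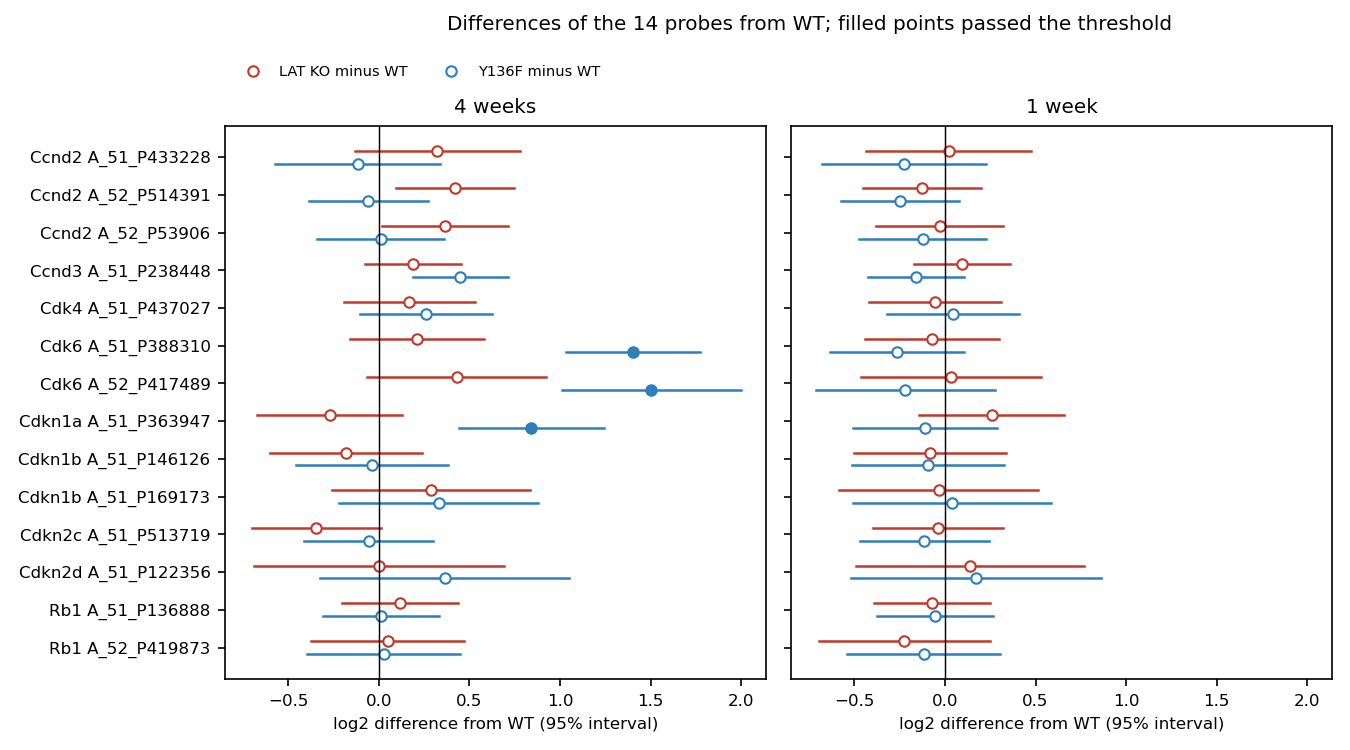
Points give the log2 difference of each probe from WT at 4 weeks (left) and 1 week (right) for LAT KO and Y136F cells, with the 95% interval as a line and filled points for an adjusted p under 0.05. The filled points are both Cdk6 probes and Cdkn1a in Y136F cells at 4 weeks, at 1.40, 1.51 and 0.84.

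Among the D-type cyclins, which sense mitogens and carry CDK4 and CDK6, no probe was called in any comparison. Ccnd3, a cyclin needed for the expansion of early lymphocytes in mice, came nearest. At 4 weeks Ccnd3 had 1.78, 1.83 and 1.76 in LAT KO, 2.02, 1.99 and 2.14 in Y136F, and 1.44, 1.65 and 1.71 in WT mice. The 3 groups did not overlap, with Y136F highest and WT lowest. The difference of Ccnd3 between Y136F and WT was 0.45 ± 0.13 (95% interval 0.19 to 0.71), or 1.37-fold, and was not called (limma adjusted p = 0.0575). Within the 3 slides it was 0.58, 0.34 and 0.42. At 1 week Ccnd3 had 1.93, 2.02 and 1.82 in LAT KO, 1.62, 1.53 and 1.85 in Y136F, and 1.92, 1.64 and 1.92 in WT mice, and the groups overlapped.

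Ccnd2, the cyclin induced early after T cell stimulation, had its highest values of 4 weeks in LAT KO cells, although no difference passed the threshold. On probe A_52_P514391, Ccnd2 had 4.35, 4.63 and 4.61 in LAT KO, 3.96, 4.12 and 4.08 in Y136F, and 4.09, 4.23 and 4.00 in WT mice of 4 weeks. On probe A_52_P53906 it had 4.63, 4.69 and 4.66 in LAT KO, 4.18, 4.29 and 4.45 in Y136F, and 4.27, 4.33 and 4.29 in WT mice. On probe A_51_P433228 it had 3.28, 3.09 and 3.54 in LAT KO, 2.75, 2.89 and 2.95 in Y136F, and 2.93, 3.02 and 3.0 in WT mice. On all 3 probes every LAT KO mouse was above every Y136F and every WT mouse, whereas Y136F and WT mice overlapped. Against WT, Ccnd2 differed by 0.42 ± 0.16, 0.37 ± 0.17 and 0.32 ± 0.22 on these probes (limma adjusted p = 0.351, 0.428 and 0.536). Against Y136F, the first of these Ccnd2 probes differed by 0.48 ± 0.16 (limma adjusted p = 0.116).

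With Ccnd3 and the second Cdk6 probe, 5 of the 14 probes had all LAT KO values above all WT values at 4 weeks and none had them below, while 10% of all probes were above and 13.7% below. None of the 14 was called in that comparison by limma (smallest adjusted p = 0.351), 2 had an unadjusted p under 0.05, and 0.1% of all probes were called (0.0652% higher and 0.0351% lower). Weighting the arrays by their estimated quality called 3 probes there, among them probe A_52_P53906 of Ccnd2 (0.33, limma adjusted p = 0.045). The median difference of the 14 probes was 0.18, beside -0.145 over all tested probes. That last value depends on the scaling: under quantile normalization the median of all probes was -0.032 for LAT KO and -0.063 for Y136F against WT at 4 weeks, in place of -0.145 and -0.164.

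At 1 week the LAT KO mice spread widely on Ccnd2 probes A_51_P433228 and A_52_P53906. On probe A_51_P433228 they had 3.74, 3.24 and 2.66, against 2.86, 3.06 and 2.99 in Y136F and 2.98, 3.01 and 3.60 in WT mice. On probe A_52_P53906 the LAT KO mice had 4.91, 4.72 and 4.19, against 4.35 to 4.75 in Y136F and 4.56 to 4.77 in WT mice. The LAT KO mice covered the whole range of the other 2 groups on both probes. Their SD was 0.542 and 0.37 on these probes, and 0.188 on probe A_52_P514391. On both wide probes replicate 1 was the highest and replicate 3 the lowest LAT KO mouse. Replicate 3 carried 7888 outlier spots, against 187 to 952 on the other arrays.

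Of the CIP/KIP inhibitors, Cdkn1a was called in some comparisons and Cdkn1b in none. Their differences were not tested against each other. Cdkn1a encodes p21, which binds cyclin-CDK pairs and is a classic target of p53. Cdkn1a was higher in Y136F cells at 4 weeks, with -0.23, -0.11 and -0.41, against -1.30, -1.14 and -0.84 in WT mice. LAT KO mice of 4 weeks had -1.30, -1.58 and -1.21 for Cdkn1a. At 1 week the Cdkn1a signals were -1.04, -1.51 and -1.20 in LAT KO, -1.73, -1.52 and -1.59 in Y136F, and -1.81, -1.12 and -1.58 in WT mice. The Y136F mice of 4 weeks stood above all other 15 mice, and at 1 week every LAT KO mouse was above every Y136F mouse. In that 1-week comparison this was 1 of the 14 probes with LAT KO wholly above Y136F and none was wholly below, while 4.54% of all probes were above and 6.17% below.

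The difference of Cdkn1a between Y136F and WT cells at 4 weeks was 0.84 ± 0.19, or 1.79-fold (limma adjusted p = 0.0162), and within the 3 slides it was 1.07, 1.03 and 0.42. Between LAT KO and Y136F cells it was -1.11 ± 0.19, so that LAT KO cells were 2.16-fold lower (limma adjusted p = 0.00209). Between LAT KO and WT cells at 4 weeks it was -0.27 ± 0.19 (95% interval -0.67 to 0.13, limma adjusted p = 0.544). The 4-week difference between Y136F and WT exceeded the 1-week difference by 0.95 ± 0.27, which was not called (limma adjusted p = 0.133). The call of Cdkn1a against WT was lost with sex by label as a term (0.82 ± 0.28, limma adjusted p = 0.308). It was also lost without Y136F replicate 1 or 2 (limma adjusted p = 0.0584 and 0.0812) and without WT replicate 1 or 2 of 4 weeks (limma adjusted p = 0.0595 and 0.0749), with the difference between 0.74 and 0.83. Against Y136F mice of 1 week, where time and slide are partly mixed, Cdkn1a in Y136F cells at 4 weeks was higher by 1.36 ± 0.19 (limma adjusted p = 0.000321). The call of Cdkn1a between LAT KO and Y136F cells at 4 weeks passed in 32 of 33 alternatives. It was lost with sex by label as a term (limma adjusted p = 0.098).

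The Cdkn1a probe was printed as 10 spots on each array, which shows how much of the spread lies within an array. The SD between its spots on an array had a median of 0.064 on the log2 scale, against a median SD of 0.214 between the 3 mice of a group. The 10-spot probes of Cdkn1b and Rb1 gave 0.066 against 0.264 and 0.065 against 0.196. For all 3 probes the mice of a group thus differed more than the spots of an array did. The plot of single Cdkn1a spots shows this for each mouse.

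**Figure D3:**
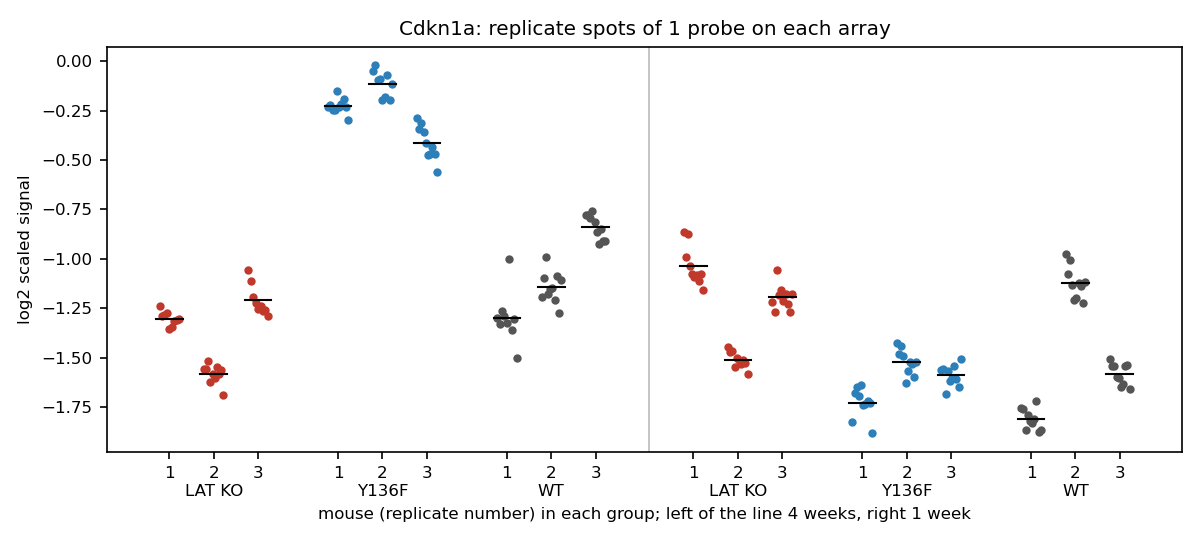
Each point is 1 spot of the Cdkn1a probe (vertical axis, log2 scaled signal), in columns by mouse and group, with 4 weeks left of the line and 1 week right of it, and the mean of an array as a bar. The spots of the 3 Y136F mice at 4 weeks lie near their means of -0.23, -0.11 and -0.41, above the spots of the other mice.

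Cdkn1b, which encodes p27, was called in no comparison on either probe. On probe A_51_P146126, Cdkn1b had 3.51, 2.94 and 3.65 in LAT KO, 3.43, 3.52 and 3.59 in Y136F, and 3.58, 3.73 and 3.34 in WT mice of 4 weeks. At 1 week it had 3.73, 3.03 and 2.87 in LAT KO, 3.16, 3.26 and 3.16 in Y136F, and 3.28, 3.27 and 3.31 in WT mice. The LAT KO mice spread over more than the other groups at both times, and the groups overlapped at 4 weeks. At 1 week all 3 Y136F mice were below all 3 WT mice on this Cdkn1b probe, by margins far smaller than the spread of the LAT KO mice. The Y136F minus WT difference of Cdkn1b at 4 weeks was -0.04 ± 0.20 on this probe (95% interval -0.46 to 0.38) and 0.33 ± 0.26 on probe A_51_P169173 (95% interval -0.22 to 0.88). On the second probe Cdkn1b ranged from 1.27 to 1.75 in LAT KO, from 1.39 to 1.78 in Y136F and from 1.13 to 1.59 in WT mice of 4 weeks. The 2 Cdkn1b probes gave different signs, and neither interval excludes 0.

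The INK4 inhibitors were called in no comparison. Cdkn2c encodes p18, an INK4 protein that restrains lymphocyte proliferation in mice. At 4 weeks Cdkn2c had 1.26, 0.85 and 1.06 in LAT KO, 1.45, 1.26 and 1.33 in Y136F, and 1.19, 1.27 and 1.74 in WT mice. The Y136F and WT mice overlapped, and the LAT KO mice reached lower. The difference of Cdkn2c between LAT KO and WT was -0.34 ± 0.17 (95% interval -0.70 to 0.01, limma adjusted p = 0.456). In WT cells Cdkn2c differed by 0.43 ± 0.17 between 4 weeks and 1 week (limma adjusted p = 0.216). Cdkn2d, which encodes p19 of the INK4 family, had no value on 5 arrays, where its single spot was marked as an outlier. Its remaining values ranged from 2.92 to 4.01, and its Y136F minus WT interval at 4 weeks, from 2 mice in each group, was -0.33 to 1.05.

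Rb1, the retinoblastoma protein on which CDK4 and CDK6 act, had the 2 smallest ranges of group means among the 14 probes. On probe A_51_P136888, Rb1 ranged from 0.34 to 0.51 in LAT KO, from 0.16 to 0.55 in Y136F and from 0.20 to 0.56 in WT mice of 4 weeks. The groups overlapped fully, and the Y136F minus WT difference of Rb1 was 0.01 ± 0.15 (95% interval -0.31 to 0.33). On probe A_52_P419873 the difference was 0.03 ± 0.20 (95% interval -0.40 to 0.45), with 1 LAT KO array of 1 week lacking a value for this Rb1 probe.

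Across the 14 probes, Y136F minus WT at 4 weeks had a median of 0.14, beside -0.164 over all tested probes, and 5 probes had all Y136F values above all WT values, while 9.95% of all probes did. None of the 14 lay wholly below, against 16.6% of all probes. In LAT KO minus Y136F at 4 weeks the 14 probes had a median of -0.12, beside 0.033 over all probes. There 3 probes (all of Ccnd2) lay wholly above and 4 wholly below, against 13.1% and 10.1% of all probes. The 1-week comparisons called none of the 14 by limma: 0.015% of all probes were called in LAT KO minus WT, 0.0125% in Y136F minus WT (0.00251% higher and 0.01% lower) and 0% in LAT KO minus Y136F, and none of the 14 had an unadjusted p under 0.05. In LAT KO minus WT at 1 week none of the 14 lay wholly above or below WT, against 1.21% and 3.75% of all probes. In Y136F minus WT at 1 week, 2 of the 14 (a Cdk6 and a Cdkn1b probe) lay wholly below WT and none above, against 6.37% and 4.95% of all probes. The change of the LAT KO minus WT difference between the times called 0 of the 14 and 0% of all probes by limma, with 1 of the 14 at an unadjusted p under 0.05.

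WT cells themselves differed between the times, without a call. In WT, 4 weeks minus 1 week, 0 of the 14 and 0% of all probes were called by limma, although 3 of the 14 and 7600 of all probes had an unadjusted p under 0.05. Wholly below 1 week at 4 weeks were 3 of the 14, namely 2 of Ccnd2 and 1 of Cdk6, against 11.2% of all probes, and 1 of the 14 (Cdkn1b) was wholly above, against 8.52%. The one of smallest p, on probe A_52_P514391 of Ccnd2, was -0.47 ± 0.16 (limma adjusted p = 0.164), with 4.09, 4.23 and 4.00 at 4 weeks, against 4.60, 4.62 and 4.52 at 1 week. The sexes of the WT mice and in part their slides also differed between the times, so time, sex and slide are partly mixed in this comparison.

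The genes that act beside and after these members were read from 8 lists of 67 measured genes, each by its brightest probe. In Y136F minus WT at 4 weeks 19 of the 67 were called higher, 2 lower and 46 were not called, with a median of 0.27, beside -0.164 over all probes. Of all tested probes 2.58% were called higher and 0.933% lower in this comparison. In LAT KO minus Y136F at 4 weeks 3 were called higher, 20 lower and 44 were not called, with a median of -0.23. Here 1.15% of all probes were called higher and 2.39% lower. In the change of the Y136F minus WT difference between the times, E2f3 and Cdt1 were called higher and Sesn1 lower, by 1.30 ± 0.26, 0.99 ± 0.20 and -1.52 ± 0.29 (limma adjusted p = 0.0277, 0.0327 and 0.02). None of the 67 was called in LAT KO minus WT at either time or in Y136F minus WT at 1 week. Over all probes few were called there as well: 0.1% in LAT KO minus WT at 4 weeks, 0.015% at 1 week, and 0.0125% in Y136F minus WT at 1 week. The lists were chosen with the direction of cell cycle genes in these samples known, so they are not independent evidence of that direction. With sex by label as a term the calls fell to 2 in Y136F minus WT and to 7 in LAT KO minus Y136F. Y136F cells of 4 weeks against Y136F cells of 1 week, all female but partly on other slides, gave 24 calls among the 67. The shares of all probes called are not given beside these counts, and the part of sex in them was not tested.

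E2F target genes, which supply DNA replication, rose most often. In Y136F minus WT at 4 weeks 9 of 14 were called higher and none lower. Rrm2, the small subunit of ribonucleotide reductase, rose by 2.50 ± 0.40 (limma adjusted p = 0.00147), and Tyms, which makes thymidylate, rose by 1.72 ± 0.26 (limma adjusted p = 0.00107). Tk1, Rrm1, Cdt1, Mcm3, Mcm5, Mcm6 and Mcm7 rose by 1.50, 1.04, 0.94, 0.92, 0.85, 0.82 and 0.66. Pcna, the replication clamp, differed by 0.34 and was not called (limma adjusted p = 0.395). In LAT KO minus Y136F at 4 weeks 8 of the 14 were called lower and none higher, with Rrm2 at -2.74 ± 0.40 and Tk1 at -1.95 ± 0.25 (limma adjusted p = 0.00061 and 0.000214). The other 6 were Tyms, Rrm1, Mcm5, Mcm6, Mcm3 and Mcm7, at -1.97, -1.37, -1.19, -1.07, -0.76 and -0.63. The mean over the 14 genes lay between 0.18 and 0.53 in LAT KO, between 1.41 and 1.50 in Y136F and between 0.20 and 0.69 in WT mice of 4 weeks.

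Of 17 pocket proteins and E2F, DP and DREAM factors, 6 were called higher and none lower in Y136F minus WT at 4 weeks. The activator genes E2f1, E2f2 and E2f3 rose by 1.51 ± 0.27, 1.23 ± 0.18 and 1.27 ± 0.18 (limma adjusted p = 0.00367, 0.000766 and 0.000713). E2f8, an atypical repressor of the family, rose by 2.60 ± 0.48 (limma adjusted p = 0.00399). Tfdp1, the partner of E2F proteins, rose by 0.69, and Rbl2, the pocket protein p130 of resting cells, rose by 0.80. In LAT KO minus Y136F at 4 weeks 6 of the 17 were called lower and none higher, with E2f8 lower by -2.93 ± 0.48 and E2f1 by -1.62 ± 0.27 (limma adjusted p = 0.00147 and 0.00193). The other 4 were E2f7, E2f3, Mybl2 and Tfdp1, at -2.35, -1.0, -0.83 and -0.71. The E2f8 probe was well above background on 17 of the 18 arrays, and the E2f7 probe on 15. The E2f7 probe fell short on LAT KO replicates 1 and 2 of 4 weeks and on LAT KO replicate 2 of 1 week. Its difference at 4 weeks thus rests in part on values near background.

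Among 6 genes of cyclin E, cyclin A and CDK2, Ccna2 rose by 1.88 ± 0.26 (limma adjusted p = 0.000562) and Ccne2 rose by 1.27 ± 0.19 (limma adjusted p = 0.000736). Ccne1 differed by 0.54 and Cdk2 by 0.58, neither called (limma adjusted p = 0.0618 and 0.131). Of 6 genes of p27 turnover, Cks1b, the cofactor of the SCF-Skp2 ligase that marks p27, rose by 1.41 ± 0.33 (limma adjusted p = 0.0193), and none fell. No probe matched Skp2 itself, and Fbxw7 and Skp1 of the same list differed by 0.21 ± 0.13 and -0.31 ± 0.19 without a call (limma adjusted p = 0.415 and 0.421). Of the CDK inhibitors outside the members, Cdkn2b (p15) differed by 1.00 ± 0.28 and Cdkn1c (p57) by -0.52 ± 0.18, neither called (limma adjusted p = 0.0664 and 0.138). Cdkn2b was called lower in LAT KO than in Y136F cells at 4 weeks, by -1.38 ± 0.28 (limma adjusted p = 0.00975). In the same comparison Ccna2, Ccne2 and Ccne1 were lower by -2.24, -1.53 and -0.75 and Cks1b by -1.97 (limma adjusted p between 0.000123 and 0.00761). The 4 genes of the CDK-activating kinase and CDK4 folding gave no call in Y136F minus WT, where Mnat1, Ccnh and Cdc37 differed by -0.36, 0.05 and -0.03.

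**Figure D4:**
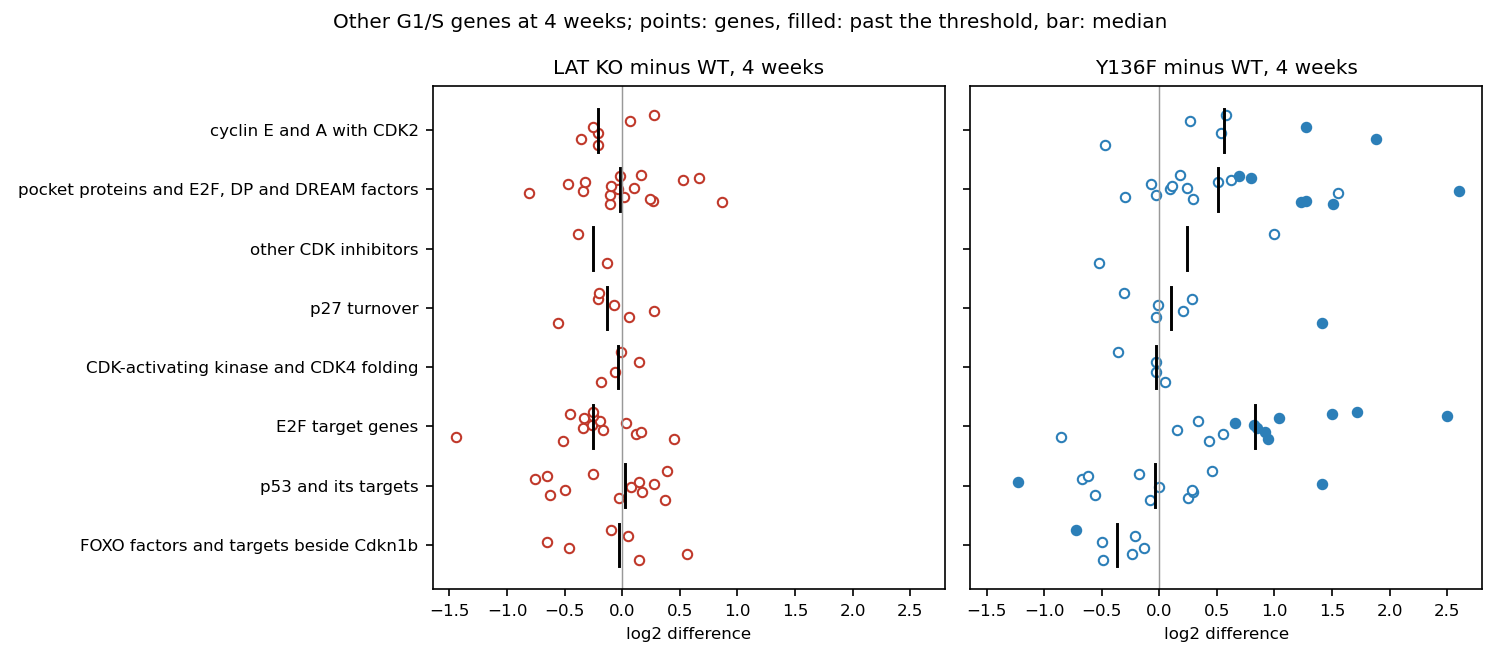
Each point is the log2 difference of 1 gene at 4 weeks, LAT KO minus WT on the left and Y136F minus WT on the right, in rows by gene list, filled for an adjusted p under 0.05, with the list median as a bar. The filled points are 19 higher and 2 lower, all in Y136F minus WT, and the medians of the E2F targets and of the E2F and DP factors there are 0.83 and 0.51.

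In Y136F minus WT at 4 weeks, 1 of 12 genes of the p53 list was called higher and 1 lower. Over all tested probes 2.58% were called higher and 0.933% lower. Of p53 and 11 of its targets, Phlda3 rose by 1.41 ± 0.30 (limma adjusted p = 0.00999) and Sesn1, a stress-response gene also controlled by FOXO factors, fell by 1.23 ± 0.20 on the log2 scale (limma adjusted p = 0.0019) in Y136F minus WT at 4 weeks. Mdm2, a p53 target that acts back on p53, differed by 0.00 ± 0.15, and Trp53 by -0.62 ± 0.29 (limma adjusted p = 0.996 and 0.295). Of 6 FOXO factors and targets beside Cdkn1b, none was called higher and 1 lower. Foxo1, a factor that keeps naive T cells quiescent, differed by -0.49 ± 0.14 and was not called (limma adjusted p = 0.0656), nor was Klf2, at -0.50 ± 0.25 (limma adjusted p = 0.321). Sesn1 was called higher and Phlda3 lower in LAT KO than in Y136F cells at 4 weeks, by 1.38 ± 0.20 and -1.12 ± 0.30 (limma adjusted p = 0.000684 and 0.0414). Foxo1 and Foxo3 were called higher in LAT KO than in Y136F cells at 4 weeks, by 0.64 ± 0.14 and 0.80 ± 0.18 (limma adjusted p = 0.014 and 0.0151). They were 2 of the 6 FOXO genes, beside 1.15% of all probes called higher there.

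Some markers of T cell state were also called in Y136F minus WT at 4 weeks, where 2.58% of all tested probes were called higher and 0.933% lower. The mean log2 signal of 6 activated or memory T cell markers lay between 1.36 and 2.01 in LAT KO, between 2.58 and 2.68 in Y136F and between 1.56 and 2.17 in WT mice, and 2 of the 6 (Pdcd1 and Cxcr3) were called higher in Y136F than in WT. Cd44, the marker used to sort the cells, differed by 0.52 ± 0.26 (limma adjusted p = 0.319). The mean of 5 naive T cell markers lay between 3.53 and 3.62 in LAT KO, between 2.98 and 3.16 in Y136F and between 3.54 and 3.77 in WT mice, and 2 of the 5, Ccr7 among them, were called lower. For 5 NK markers it lay between -0.75 and -0.24, between 0.21 and 0.28 and between -0.46 and -0.32 in the same groups, with 1 of the 5 (Eomes) called higher. For 7 B cell markers the means lay between -1.58 and -0.37 in LAT KO, between -0.93 and -0.20 in Y136F and between -0.85 and -0.39 in WT mice, and for 6 myeloid markers between -1.06 and -0.77, between -1.02 and -0.02 and between -0.90 and -0.61. The CD8 marker measured lay between -0.85 and -0.58 in LAT KO, between -0.96 and -0.79 in Y136F and between -1.21 and -0.99 in WT mice, and 3 erythroid markers averaged between -2.0 and -1.62, between -1.84 and -1.07 and between -2.29 and -1.76. For 7 CD4 T cell markers the means lay between 3.08 and 3.22 in LAT KO, between 3.40 and 3.52 in Y136F and between 3.08 and 3.36 in WT mice, and 2 of the 7 (Trat1 and Cd5) were called higher in Y136F than in WT. No B cell, myeloid, CD8 or erythroid marker was called in Y136F minus WT, and no marker of any of these lists in LAT KO minus WT. In LAT KO minus Y136F at 4 weeks the called markers were 2 of 6 activated or memory (Pdcd1 and Icos), 2 of 5 NK (Eomes and Klrb1c), 1 of 7 CD4 T cell (Cd5) and 1 of 6 myeloid markers (Fcer1g), all lower, and 2 of 5 naive markers (Ccr7 and Lef1), both higher. No B cell, CD8 or erythroid marker was called there. Over all probes 2.39% were called lower and 1.15% higher in that comparison. All measured markers of these lists were well above background on every array. The part of these cells in the results was not tested.

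The named genes whose pattern over the 18 arrays was most like that of Cdk6 (probe A_51_P388310) were Epas1, Ptpn13 and Kcnk5, with Pearson r of 0.948, 0.944 and 0.943 among 12528 genes. For Cdkn1a they were Ccl8, Azin2 and Ube2c (0.969, 0.955 and 0.953), and for Cdkn2c they were Ifitm1, Plk1 and Pcx (0.930, 0.922 and 0.910). Each r is a description over 18 arrays that share groups, slides and scaling. The genes were picked by r over these same arrays. Their differences given next largely follow from that choice and are not independent evidence. Epas1, Ptpn13 and Kcnk5 differed by 3.0 ± 0.34, 2.10 ± 0.28 and 2.45 ± 0.30 between Y136F and WT at 4 weeks (limma adjusted p = 0.000105, 0.000405 and 0.000167), and none of the 3 was called in LAT KO minus WT. Plk1 and the other genes most like Cdkn2c were called in neither comparison with WT at 4 weeks.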

How the data were processed

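RNA of 18 mice was labelled with Cy3 and hybridised to Agilent arrays, 1 mouse per array. Per the file headers, spots were read with Feature Extraction 10.5.1.1, and the deposited processed signal is a background-corrected intensity on a linear scale. In the deposited series matrix the log2 values of an array have a median between 8.558 and 8.57 and rank probes like the scanner values (Spearman at least 0.997). How they were scaled is not given in the sources used here, beyond the submitters' processing notes naming Feature Extraction 10.5 and limma. The matrix served as an alternative only. Here log2 intensity was taken minus the 75th percentile of the 43379 non-control spots of each array. Outlier spots were left out (187 to 7888 per array) and spots of 1 probe averaged. Symbols were taken by accession from RefSeq (GRCm38.p6), which named 24844 probes and left 16330 unnamed. The array design refers to another build, so no probe coordinates are given. Probes well above background on at least 3 arrays were kept (39974).

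Differences were fitted with limma 3.58.1 in R 4.3.3, with 6 group means, an intensity trend, 12 residual and 5.64 (median) prior degrees of freedom. P-values are two-sided and were adjusted by Benjamini-Hochberg within each comparison, over all of its tested probes. A probe without enough values in the groups compared was not tested in that comparison. The script was tested on simulated data. Members, lists, marker genes and tests were chosen with earlier results of these data known. Every probe of the members is named. Of the pathway lists, the called genes and the 3 of smallest p in Y136F minus WT at 4 weeks are named, except 1 gene that is not reported here, and the 3 most alike genes are given for the 3 members of largest range. Replicate numbers of the labels do not pair the mice: correlations of same-numbered arrays ranged from -0.44 to 0.53. The number of arrays limits the precision. Alternatives were other background corrections, scalings, filters, probe rules, sex, slide and array weights, and each array left out. Nothing says that mice of a group were of separate litters.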

Additional observations from a re-analysis of the deposited data

Results flagged for a closer look

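Both Cdk6 probes stood out because the effect of Y136F differed between the times by a test of that difference. The Y136F minus WT difference of Cdk6 at 4 weeks exceeded that at 1 week by 1.72 ± 0.33 on probe A_52_P417489 (limma adjusted p = 0.0223) and by 1.67 ± 0.25 on probe A_51_P388310 (limma adjusted p = 0.00454). Each 4-week difference of Cdk6 was positive within all 3 slides. At 4 weeks genotype and sex by label coincide in this comparison, since the 3 Y136F mice were female and the 3 WT mice male, and with sex by label as a term the change was 1.54 ± 0.37 and 1.62 ± 0.28 (limma adjusted p = 0.101 and 0.0259).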

How the results depend on the processing

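Every result was recomputed under up to 33 alternatives. Of these, 1 (without both arrays that go against their sex label) and all those of the pathway counts were chosen after seeing the data, as was the comparison of Y136F cells between the times. Under them no called difference changed sign. The sex term used the label also for the 2 arrays that went against it. Sex by label as a term lowered the called members to 1 in Y136F minus WT and 0 in LAT KO minus Y136F at 4 weeks and to 1 in the change of the Y136F effect, and the called pathway genes to 2 and 7 of 67. Array weights (0.27 to 4.05) raised the called members to 5, 5 and 4 in these comparisons and to 3 in LAT KO minus WT at 4 weeks, and the pathway genes to 37 in Y136F minus WT. The change of the Y136F effect also gave 1 called member without an intensity trend, and 1 with only the brightest probe of a gene, by construction. Leaving out 1 array at a time gave 2 to 4 called members in Y136F minus WT at 4 weeks, 2 to 3 in LAT KO minus Y136F and 1 to 2 in the change of the Y136F effect, with 15 to 23 and 16 to 24 pathway genes. In the other 5 comparisons no alternative called a member. Cdk6 probe A_51_P388310 passed in all 33 alternatives against WT at 4 weeks, probe A_52_P417489 in 31 of 32 and Cdkn1a in 28 of 33. The cause of these shifts was not tested.

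The replicate number as a block gave 3, 3 and 2 called members in those 3 comparisons, as without it, and 21 and 22 pathway genes. The numbers share no stated source, and the block changed no call of a member. Of 118 results not called, 9 were called under an alternative, and 59 changed sign under at least 1. Ccnd3 in Y136F minus WT at 4 weeks passed in 5 of 33, among them a random slide block (limma adjusted p = 0.0389). Counts over all probes ranged from 112 to 6729 in Y136F minus WT and from 270 to 3483 in LAT KO minus Y136F at 4 weeks, beside 1402 and 1412. They ranged from 5 to 5348 in LAT KO minus WT at 4 weeks (40 as reported), from 69 to 1596 in the change of the Y136F effect (240), from 0 to 6 in that of LAT KO (0), and from 0 to 1611 between the times in WT (0). At 1 week they ranged from 0 to 197 in LAT KO minus WT (6), from 1 to 282 in Y136F minus WT (5) and from 0 to 326 in LAT KO minus Y136F (0).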
